A study of Mus musculus with 6 samples.

Results

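The Cyp3a genes encode cytochrome P450 enzymes of the endoplasmic reticulum that oxidise drugs, steroids and bile acids in the liver. They were followed here in hepatocytes of mice with and without Xbp1 on a high-fat diet. The family was taken as the 9 protein-coding genes Cyp3a11, Cyp3a13, Cyp3a16, Cyp3a25, Cyp3a41a, Cyp3a41b, Cyp3a44, Cyp3a57 and Cyp3a59, chosen by symbol among the 54532 genes listed. The table holds 11 rows with Cyp3a in the symbol, and the other 2 are pseudogenes with at most 2 counts in any library. Of the 9 genes, 5 had enough counts to be tested. The XCON group (genotype Xbp1FL/FL) carries floxed Xbp1 alleles, and the XCKO group (Xbp1ΔHep) lacks Xbp1 in hepatocytes. No source used here names the Cre line. Both groups were C57BL/6 mice aged 32 to 34 weeks that had eaten the high-fat diet for 26 weeks, so no comparison with a normal diet is made. Primary hepatocytes were isolated from the liver, and RNA was sequenced in 3 libraries per group.

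In mouse liver the main inducer of Cyp3a genes is the nuclear receptor PXR (encoded by Nr1i2), which binds DNA together with the retinoid X receptor RXR when a drug, steroid or bile acid occupies it. The related receptor CAR (Nr1i3) acts on many of the same promoters, and HNF4α (Hnf4a) and C/EBPα (Cebpa) set their level in hepatocytes. A P450 enzyme works only with electrons from P450 reductase (Por), helped by cytochrome b5 (Cyb5a). Cyp3a11 is the major adult form and the usual mouse counterpart of human CYP3A4. Cyp3a41 and Cyp3a44 are known as forms of the female liver, and Cyp3a16 as a form of fetal and young liver.

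Total counts were 23919355 to 26502456 in XCON and 26477489 to 27240079 in XCKO. Levels are given as CPM, reads per 1000000 of a library total normalized by trimmed mean of M-values (TMM). The TMM factors were 1.086 to 1.117 in XCON and 0.8498 to 0.9738 in XCKO. On this scale XCKO levels are therefore raised relative to XCON levels, compared with shares of the library total. The targeted gene checks the labels: XCON 1, 2 and 3 had 4453, 8021 and 9434 Xbp1 counts, against 1458, 1013 and 1558 in XCKO 1, 2 and 3. Mitochondrial transcripts took 22.8% of the counts in XCON 1 and 8.99% to 13.1% in the other libraries. The summed level of 10 hepatocyte marker genes was 66384 to 90166 CPM in XCON and 90798 to 119236 CPM in XCKO, with Alb the most abundant of them. The summed level of 10 macrophage markers was 809 to 1575 CPM in XCON and 278 to 762 in XCKO, that of 10 stellate markers 349 to 682 and 151 to 376, and that of 10 cholangiocyte markers 288 to 617 and 107 to 179.9 CPM. In these 3 lists, 0 genes were called higher, and 1 macrophage and 3 stellate markers were called lower. Over all tested genes, 5.21% were called higher and 4.05% lower. Each tested gene of the 3 lists had a log2 fold change below 0. Of the 10 hepatocyte markers, 1 was called higher and 0 lower, and all 10 had a log2 fold change above 0. Erythroid markers summed to 42.3 to 70 CPM in XCON and 77.4 to 945 in XCKO, with 0 of 5 tested genes past the test, and endothelial markers to 718 to 737 and 530 to 1045 CPM. In CPM, the hepatocyte, macrophage, cholangiocyte and erythroid sums thus did not overlap between the groups. The gap between groups was small for the hepatocyte and erythroid sums and depends on the TMM factors. The part of other cell types in the Cyp3a results was not tested. In bulk samples, fewer cells of a type and less RNA per cell cannot be told apart.

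As a whole the family was higher in XCKO. Its 9 genes together made up 0.421%, 0.365% and 0.482% of all counts in XCON 1, 2 and 3, against 1.09%, 1.06% and 1.17% in XCKO 1, 2 and 3 (95% Wilson half-width at most 0.00405 percentage points, counting error only). The summed level was 3853 ± 476 CPM in XCON and 12209 ± 1471 CPM in XCKO (SD, n = 3), a ratio of 3.17. The hepatocyte marker sum was higher in XCKO by a ratio of 1.32 in CPM, and part of this ratio comes from the TMM factors. A comparison with the marker sum within each library does not depend on these factors. Set against that sum, the family reached 58.4, 37.3 and 53.6 per 1000 marker CPM in XCON against 116, 120.2 and 116 in XCKO. This was a ratio of 2.36. Relative to hepatocyte markers, then, every XCKO library still stood above every XCON library.

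Of the 5 tested genes, Cyp3a11, Cyp3a13, Cyp3a16, Cyp3a25 and Cyp3a59, each was higher in XCKO at an adjusted p of 0.05 (quasi-likelihood F test of edgeR, Benjamini-Hochberg over all genes). Over all 14873 tested genes, 5.21% were called higher, 4.05% lower and 9.27% in either direction. The 5 are not the whole family: Cyp3a16 passed the filter on low counts only through XCKO, where it is high, and the other 4 members had too few counts to be tested. In each of the 5 genes the groups did not overlap, with XCKO higher, as in 17.6% of all tested genes.

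**Figure D1:**
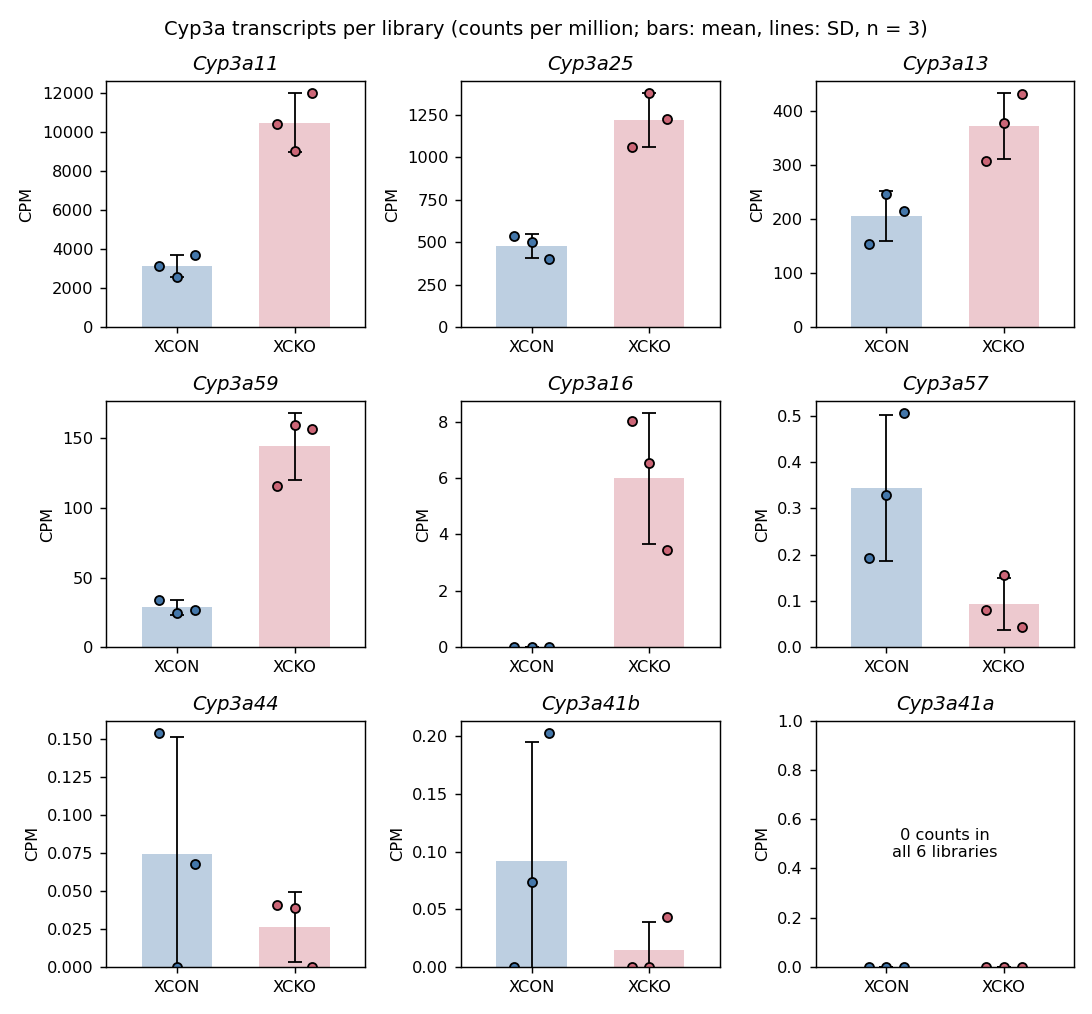
Level of each Cyp3a gene in CPM (vertical axes, each with its own scale from 0) in the 3 XCON and 3 XCKO libraries. Points are libraries, bars are means and black lines are the SD (cut at 0). Cyp3a11, Cyp3a25, Cyp3a13, Cyp3a59 and Cyp3a16 are higher in every XCKO library, whereas Cyp3a57, Cyp3a44 and Cyp3a41b stay near 0 and Cyp3a41a has 0 counts.

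Cyp3a11 (ENSMUSG00000056035, mm10 chromosome 5, 145854426 to 145879964, minus strand), the main drug-oxidising form, carried most of the family's counts. Its level was 3149, 2592 and 3672 CPM in XCON 1, 2 and 3, against 10411, 8992 and 11989 CPM in XCKO 1, 2 and 3. The lowest XCKO library thus lay above the highest XCON library by far more than the spread within either group. The means were 3138 ± 540.4 and 10464 ± 1499 CPM (SD, n = 3), and on the log2 scale XCKO was higher by 1.74 ± 0.23 (SE, adjusted p = 0.00837, edgeR). By mean count over the 6 libraries it ranked 15 among all genes of the table. Leaving out any 1 library kept the log2 fold change between 1.62 and 1.89, with an adjusted p of at most 0.0383. Against Alb in the same library, Cyp3a11 had 69.4, 41.9 and 67.9 counts per 1000 Alb counts in XCON against 149, 157 and 141 in XCKO.

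Cyp3a25 (ENSMUSG00000029630, chromosome 5, 145977194 to 146009618, minus strand), a form found in liver and intestine, was the next most abundant member. It stood at 538, 503 and 402 CPM in XCON 1, 2 and 3, against 1060.3, 1377 and 1227 CPM in XCKO 1, 2 and 3, without overlap. In the same edgeR test XCKO was higher by 1.35 ± 0.20 on the log2 scale (SE, adjusted p = 0.0108). Cyp3a59 (ENSMUSG00000061292, chromosome 5, 146079257 to 146113287, plus strand) is its closest relative in sequence and the nearest member beside it, on the opposite strand. Cyp3a59 had 34.2, 24.3 and 26.9 CPM in XCON 1, 2 and 3, against 116, 159 and 157 CPM in XCKO 1, 2 and 3. With a log2 fold change of 2.34 ± 0.20 (SE) and an adjusted p of 0.00177, it had the largest fold among the members with counts in both groups, and ranked 30 by log2 fold change among all tested genes. Both genes passed whichever library was left out, with adjusted p-values of at most 0.0435 for Cyp3a25 and 0.0199 for Cyp3a59.

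Cyp3a13 (ENSMUSG00000029727, chromosome 5, 137892932 to 137921619, minus strand), a form expressed in several tissues beside the liver, lies 7.42 Mb from the other members. Its level was 155, 246 and 215 CPM in XCON 1, 2 and 3, against 309, 379 and 431 CPM in XCKO 1, 2 and 3. The groups did not overlap, but the gap between XCON 2 and XCKO 1 was close to the spread within each group. The log2 fold change of 0.86 ± 0.22 (SE) passed narrowly (adjusted p = 0.0443, edgeR). That call was lost without any 1 of the 6 libraries (adjusted p of 0.0555 to 0.117, largest without XCKO 3), with library totals alone (log2 fold change 0.59, adjusted p = 0.0914) and with the replicate number as a block (0.0587). The direction stayed positive in each of these fits.

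**Figure D2:**
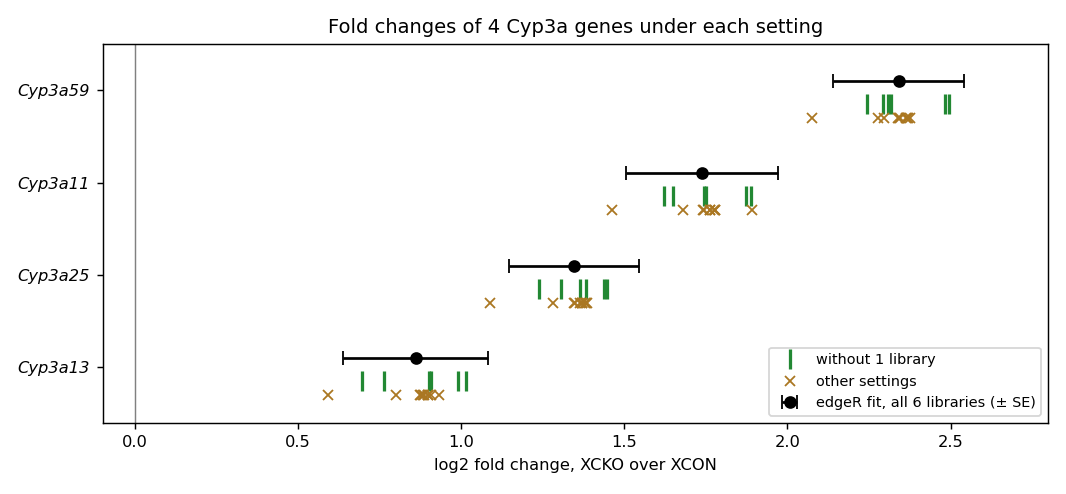
Log2 fold changes (XCKO over XCON, horizontal axis) of the 4 members with counts in both groups. Black points and lines are the edgeR estimate over all 6 libraries with its SE, green ticks are fits without 1 library, up to 2.50 for Cyp3a59 without XCON 1, and crosses are the other settings, from 0.59 for Cyp3a13 with library totals alone to 2.38 for Cyp3a59 with DESeq2.

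Cyp3a16 (ENSMUSG00000038656, chromosome 5, 145436309 to 145469723, minus strand), the form known from fetal and young liver, was detected in XCKO libraries only. It had 0 counts in each XCON library and 198, 168 and 80 counts in XCKO 1, 2 and 3. In CPM these were 8.01, 6.52 and 3.46. A count of 0 in all of XCON allows a level of up to 0.0362 CPM (3 counts over the group), and against that floor the pooled XCKO level of 6.06 CPM was at least 167-fold higher. The adjusted p was 0.00356 in edgeR's test, but the gene entered that test only through XCKO, where it is high, so the counts and the bound describe it and the p adds no support. Its level in XCKO was low beside the other called members: the 3 XCKO libraries had 0.77, 0.725 and 0.289 Cyp3a16 counts per 1000 Cyp3a11 counts. In XCON the limit from 0 counts was 0.0115 per 1000.

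The other 4 members had few counts in every library. Cyp3a57 (chromosome 5, 145345279 to 145390926, plus strand) had 5, 9 and 15 counts in XCON 1, 2 and 3, against 2, 4 and 1 in XCKO 1, 2 and 3, which puts it lower in each XCKO library, opposite to its close relatives Cyp3a25 and Cyp3a59. Without the filter on low counts its adjusted p was 0.311 in edgeR's test, so this difference did not pass. Cyp3a44 (chromosome 5, 145773983 to 145805874, minus strand) had 4, 0 and 2 counts in XCON against 1, 1 and 0 in XCKO. For Cyp3a41b (chromosome 5, 145558664 to 145584730, minus strand) the counts were 0, 2 and 6 in XCON against 0, 0 and 1 in XCKO. Cyp3a41a (chromosome 5, 145694049 to 145720136, minus strand) had 0 counts in all 6 libraries, which allows up to 0.0192 CPM (3 counts over all libraries). For the 2 Cyp3a41 copies this limit holds only for reads that can be told apart, as described next.

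How far reads can be assigned to 1 member depends on how much sequence the members share. Between the longest protein-coding transcripts in GENCODE M21, Cyp3a41a and Cyp3a41b were 99.7% identical, Cyp3a25 and Cyp3a59 97%, Cyp3a41a and Cyp3a44 94.9%, and Cyp3a11 and Cyp3a16 91.3%. Of all windows of 100 bases in the transcript, some are also present in a transcript of another gene. These shared windows made up 90.8% in Cyp3a41a, 88.2% in Cyp3a41b, 6.05% in Cyp3a25, 5.61% in Cyp3a59 and 5.37% in Cyp3a44. They made up 0.312% in Cyp3a11, 0.123% in Cyp3a16 and 0% in Cyp3a13 and Cyp3a57. With windows of 50 bases, Cyp3a25 shared 26.8%, Cyp3a59 28%, Cyp3a44 26.5%, Cyp3a11 14.8% and Cyp3a16 10.7%. No source used here gives the read length or the handling of reads that match several genes. Counts of Cyp3a41a and Cyp3a41b are therefore uncertain. Those of Cyp3a25 and Cyp3a59 carry some doubt about their split, and those of Cyp3a44 carry some doubt as well. Cyp3a11, Cyp3a13, Cyp3a16 and Cyp3a57 are for the most part distinct. The stretch of exon 12 around the codon of the haem-binding cysteine, the residue that holds the iron of every P450 enzyme, is shown as an example of how few bases can separate members. Given are 60 coding bases of each gene on GRCm38, in the direction of transcription, with capitals where a base differs from Cyp3a11 in this ungapped comparison.
Cyp3a11, chr5:145858783-145858842, minus strand: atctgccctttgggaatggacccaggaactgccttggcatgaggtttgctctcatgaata
Cyp3a16, chr5:145440419-145440478, minus strand: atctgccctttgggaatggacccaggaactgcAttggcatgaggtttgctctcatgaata
Cyp3a44, chr5:145777983-145778042, minus strand: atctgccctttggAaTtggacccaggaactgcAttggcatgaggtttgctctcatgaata
Cyp3a41a, chr5:145698199-145698258, minus strand: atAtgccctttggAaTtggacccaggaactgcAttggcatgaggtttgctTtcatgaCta
Cyp3a25, chr5:145981446-145981505, minus strand: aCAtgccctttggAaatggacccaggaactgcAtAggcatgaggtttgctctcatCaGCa
Cyp3a59, chr5:146109084-146109143, plus strand: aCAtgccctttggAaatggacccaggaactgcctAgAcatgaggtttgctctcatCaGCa
Cyp3a16 differed from Cyp3a11 at 1 of these bases, Cyp3a44 at 3, Cyp3a41a at 6, and Cyp3a25 and Cyp3a59 at 8 each. The stretch of Cyp3a41b was the same as that of Cyp3a41a. Over whole transcripts the order differed, with 94.2% identity to Cyp3a11 in Cyp3a41a, 93.3% in Cyp3a44 and 91.3% in Cyp3a16.

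Ratios of counts within a library show whether the members moved in step. Cyp3a59 had 63.5, 48.4 and 67 counts per 1000 Cyp3a25 counts in XCON 1, 2 and 3, against 109, 116 and 128 in XCKO 1, 2 and 3. That ratio was 1.97 times as high in XCKO, with no overlap. Cyp3a13 fell behind Cyp3a11, with 49.2, 95.1 and 58.5 counts per 1000 Cyp3a11 counts in XCON against 29.7, 42.1 and 36 in XCKO. Both ratios separated the groups, but 3 libraries against 3 cannot go below p = 0.1 in a two-sided exact permutation test. Cyp3a25 had 171, 194 and 109 counts per 1000 Cyp3a11 counts in XCON against 102, 153 and 102 in XCKO, and these values overlapped. Within the family, Cyp3a11 took 77% to 85.1% of the counts in XCON and 82.4% to 87.5% in XCKO, which also overlapped.

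**Figure D3:**
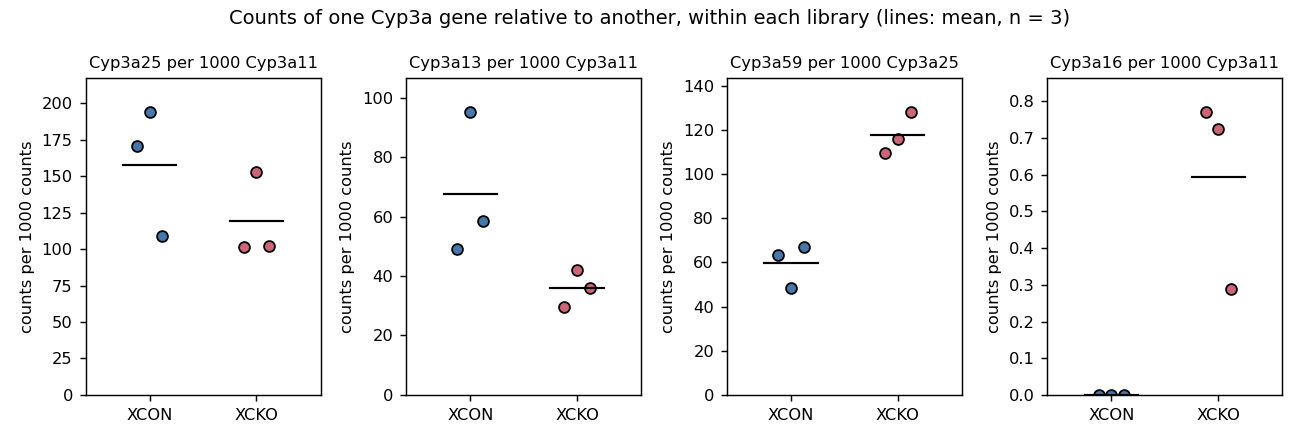
Counts of one Cyp3a gene per 1000 counts of another within the same library (vertical axes, from 0), for 3 XCON and 3 XCKO libraries. Points are libraries and lines are means. Cyp3a59 against Cyp3a25 and Cyp3a16 against Cyp3a11 are higher in XCKO, Cyp3a13 against Cyp3a11 is lower, and Cyp3a25 against Cyp3a11 overlaps between the groups.

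To compare the genes with each other, levels were divided by the length of the longest protein-coding transcript. In XCON the order on this scale was Cyp3a11 (1339 ± 231 CPM per kb, SD, n = 3), Cyp3a25 (240.3 ± 35.3), Cyp3a13 (69.5 ± 15.7) and Cyp3a59 (14.3 ± 2.56). The order was the same in XCKO, with 4464 ± 639.6, 611 ± 79.2, 126 ± 20.8 and 72.5 ± 12.2 CPM per kb, followed by Cyp3a16 at 3.47 ± 1.34. No 2 neighbours in these orders overlapped between libraries of a group. The authors' deposited FPKM values give Cyp3a11 601 ± 115 in XCON and 2056 ± 332 in XCKO (SD, n = 3). They divide by a gene length of 5093 bases, the union of its coding transcript of 2344 bases and a transcript with a retained intron, so the lead of Cyp3a11 over its relatives is smaller in FPKM than per kb of transcript, in the same order.

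All members but Cyp3a13 lie in a cluster of 768 kb on chromosome 5. The genes split into sets with near-identical promoters. In the 300 bases from 250 before to 50 after the start (RefSeq, GRCm38.p6), Cyp3a25 and Cyp3a59 were 96.3% identical, Cyp3a57 and Cyp3a59 92%, and Cyp3a25 and Cyp3a57 90.3%. A second set was formed by Cyp3a16, Cyp3a41a, Cyp3a41b and Cyp3a44, with 95.3% between Cyp3a16 and Cyp3a44 and 94.6% between Cyp3a16 and Cyp3a41a. Cyp3a11 was nearest to this second set (76.7% with Cyp3a16). Levels differed widely among Cyp3a25, Cyp3a59 and Cyp3a57. In the second set, mean levels were 0 to 0.0921 CPM in XCON, and only Cyp3a16 rose in XCKO, to a mean of 6 CPM. Counts of Cyp3a41a and Cyp3a41b are uncertain, as given above. Shown are the bases from 200 to 81 before the start, in the direction of transcription. They are given for members of the cluster that were higher in XCKO and for near copies that had almost no counts. Each nuclear receptor half-site AGNTCA, on either strand, is in capitals.
Cyp3a11, chr5:145879935-145880054, minus strand: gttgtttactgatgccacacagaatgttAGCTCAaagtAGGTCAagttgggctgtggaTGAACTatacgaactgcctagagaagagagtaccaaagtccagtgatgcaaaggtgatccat
Cyp3a25, chr5:146009699-146009818, minus strand: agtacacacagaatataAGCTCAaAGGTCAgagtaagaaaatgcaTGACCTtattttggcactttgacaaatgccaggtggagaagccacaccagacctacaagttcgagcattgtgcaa
Cyp3a59, chr5:146079058-146079177, plus strand: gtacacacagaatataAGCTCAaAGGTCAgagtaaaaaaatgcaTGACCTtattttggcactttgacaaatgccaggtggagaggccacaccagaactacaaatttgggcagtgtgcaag
Cyp3a57, chr5:145345069-145345188, plus strand: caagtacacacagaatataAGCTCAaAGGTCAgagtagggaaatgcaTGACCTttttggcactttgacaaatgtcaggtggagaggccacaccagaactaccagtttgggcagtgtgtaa
Cyp3a16, chr5:145469804-145469923, minus strand: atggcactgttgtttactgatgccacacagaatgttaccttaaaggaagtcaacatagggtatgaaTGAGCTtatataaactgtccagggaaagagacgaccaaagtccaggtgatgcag
Cyp3a44, chr5:145805955-145806074, minus strand: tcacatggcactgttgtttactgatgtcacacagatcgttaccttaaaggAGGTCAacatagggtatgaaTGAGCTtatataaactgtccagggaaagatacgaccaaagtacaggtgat
Cyp3a41a, chr5:145720217-145720336, minus strand: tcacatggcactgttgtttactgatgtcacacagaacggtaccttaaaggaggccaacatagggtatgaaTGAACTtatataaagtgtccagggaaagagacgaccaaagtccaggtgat
The window of Cyp3a41b has the same letters as that of Cyp3a41a. Cyp3a13, which was also called higher in XCKO but lies outside the cluster, is not shown. Its window holds 0 half-sites, and its only half-site in the 300 bases lies 23 bases after the start. In Cyp3a11, a pair of half-sites starting 172 bases before the start forms the direct repeat AGNTCANNNNAGNTCA (DR4), a spacing that PXR and CAR are known to bind. In Cyp3a25, Cyp3a59 and Cyp3a57, a pair starting 183, 184 and 181 bases before the start forms AGNTCANAGNTCA (DR1), the spacing bound by HNF4α and by PPARα with RXR. Searched on both strands of the 300 bases, DR4 was present in 1 of the 9 members and 0.133% of 27025 promoters, and DR1 in 3 of 9 and 0.207%. Both repeats contain the single half-site, which was in 9 of 9 members and 46.5% of promoters. The repeats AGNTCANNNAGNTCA (DR3) and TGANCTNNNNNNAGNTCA (ER6) were in 0 members and 0.074% and 0.037% of promoters. The core ACGTG, to which XBP1 is known to bind, was in 0 of the 9 members and 19.7% of promoters, which says only that these letters are not in this window. The DR1 letters were the same in Cyp3a57, with 1 to 15 counts per library, as in Cyp3a59, with 664 to 4108. Likewise Cyp3a16 rose to 80 to 198 counts in XCKO while Cyp3a44, whose promoter is 95.3% identical, had at most 4 counts in any library.

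Genes next to the family were read as well. Within 500 kb of a member, 51 other genes were tested in edgeR, of which 4 were higher in XCKO and 0 lower. That is 7.84% higher, against 5.21% of all genes called higher and 9.27% called in either direction, and 47 did not pass. The count is near the share over all genes and is no result about the neighbours. The median log2 fold change of the 51 genes was 0.16, beside −0.05 for all tested genes. Around the cluster itself, 1 of 15 passed, Atp5j2, a subunit gene of the mitochondrial ATP synthase, with a log2 fold change of 0.91. Around Cyp3a13, 3 of 36 passed: the transferrin receptor gene Tfr2 (0.91), Cops6 (0.82) and Lamtor4 (0.81). Without XCKO 3, 0 of the 51 neighbours passed, without XCON 1 or XCON 2 there was 1, and without XCON 3 there were 2. The share of all genes called in those fits was not compared, so these drops are no result about the neighbours.

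**Figure D4:**
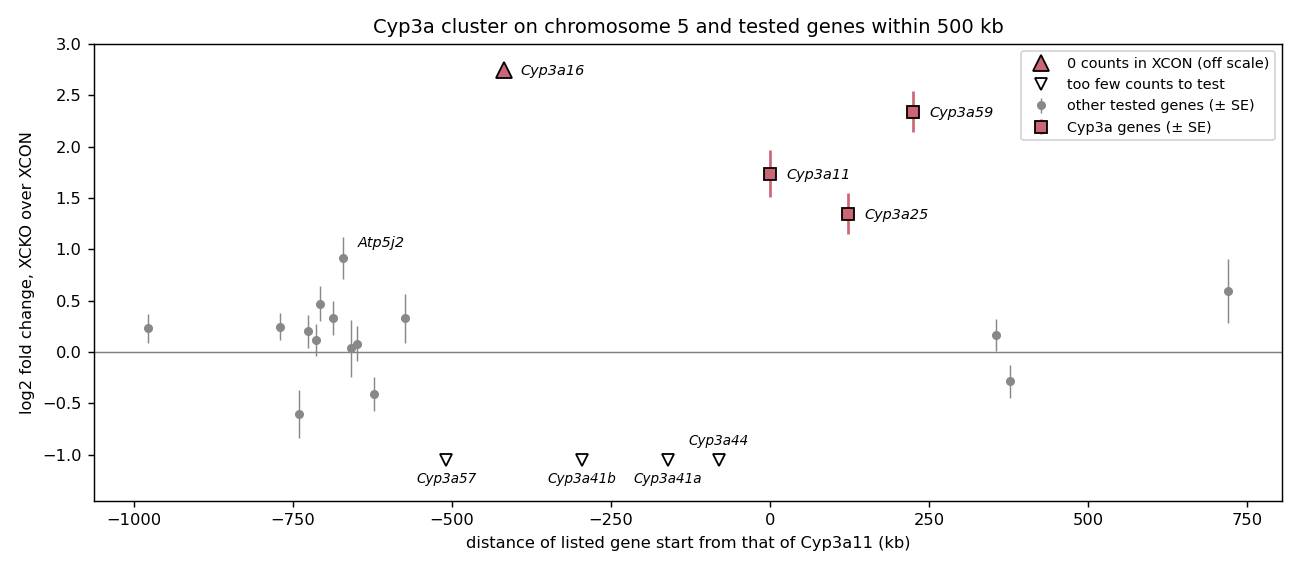
Log2 fold change (XCKO over XCON, vertical axis) against the distance of each listed gene start from that of Cyp3a11 in kb (horizontal axis), for the 8 clustered Cyp3a genes and the 15 other tested genes within 500 kb. Bars are SEs, the filled triangle marks Cyp3a16, whose fold has no upper bound, and open triangles mark members with too few counts, both at an arbitrary height. Cyp3a59, Cyp3a11 and Cyp3a25 stand above every neighbour.

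The mRNAs of the receptors PXR, CAR and HNF4α did not pass edgeR's test, though that of CAR passed with DESeq2. Nr1i2, which encodes PXR, stood at 72.8, 46.7 and 74.3 CPM in XCON 1, 2 and 3, against 75.5, 70.1 and 69.1 in XCKO 1, 2 and 3, overlapping, with a log2 fold change of 0.15 ± 0.19 (SE) and an adjusted p of 0.641. Nr1i3, which encodes CAR, had 12.8, 21 and 10.7 CPM in XCON against 19.4, 43.5 and 21.6 in XCKO. Its log2 fold change of 0.93 ± 0.37 (SE) did not pass in edgeR (adjusted p = 0.146, and 0.0507 with the replicate block), and passed in DESeq2 (adjusted p = 0.0305). Hnf4a had 342 ± 127 and 423 ± 100.1 CPM (SD, n = 3) and did not pass either (adjusted p = 0.502). Of 18 tested receptor and partner genes, 1 was higher, 1 lower and 16 did not pass, with a median log2 fold change of 0.18. That count is near the 9.27% called over all tested genes and is no result about the list. The higher one was Cebpa (246 ± 59.2 to 509 ± 88.2 CPM, SD, n = 3, log2 fold change 1.05), and the lower one was the coactivator gene Ncoa3 (−0.68). Cebpa lost its call without XCON 1, XCON 3, XCKO 2 or XCKO 3 (adjusted p of up to 0.0876), and Ncoa3 without any 1 library but XCON 3 (up to 0.0664). Receptor mRNA does not measure receptor activity, which was not assayed here.

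Among 10 genes for the electron and haem supply of P450 enzymes, 1 passed, beside 9.27% of all tested genes. Pgrmc1, a haem-binding membrane protein that associates with P450 enzymes, stood at 920.1 ± 77.4 CPM against 1646 ± 27.8 CPM (SD, n = 3), higher by 0.84 on the log2 scale. Its call was lost without XCON 3 or any 1 XCKO library (adjusted p of up to 0.072). The reductase gene Por had 202, 571 and 228 CPM in XCON 1, 2 and 3, against 717, 1326 and 1373 in XCKO 1, 2 and 3. Every XCKO library was above every XCON library, and the log2 fold change of 1.77 ± 0.45 (SE) missed the threshold with an adjusted p of 0.0517 in edgeR. Por passed with the replicate block (adjusted p = 0.046), with library totals alone (0.0498) and in DESeq2 (3.3e-05). The list's median log2 fold change was 0.33.

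Of 27 tested genes known as other targets of PXR or CAR, 9 were higher in XCKO, 0 lower and 18 did not pass. That is 33.3% higher beside 5.21% of all tested genes, and the median log2 fold change was 0.61. This list, like those of receptors and supply genes, was chosen with earlier results of these data known. Its share is therefore a description and adds no support for a target pattern. Cyp2c29 (log2 fold change 2.90), the carboxylesterase gene Ces2a (1.21), the lipogenic gene Thrsp (1.70) and the glucuronosyltransferase gene Ugt1a9 (1.51) had the smallest p-values, and each passed whichever library was left out. Cyp2c29, Ces2a and Ugt1a9 have close paralogs or shared exons, and their counts are uncertain. Cyp2b10, the usual marker of CAR activity, did not pass (0.96 ± 0.61, SE, adjusted p = 0.336). The glutathione transferase genes Gstm1, Gstm2 and Gstm3 had log2 fold changes of −0.40, −0.42 and −0.69, none past the test. Over the receptor, supply and target lists together 12 of 55 genes passed, beside 9.27% of all tested genes. Without XCON 1, XCON 3 and XCKO 3 this count was 6, 7 and 4. The share of all genes called in those fits was not compared, so these drops are no result about the lists.

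**Figure D5:**
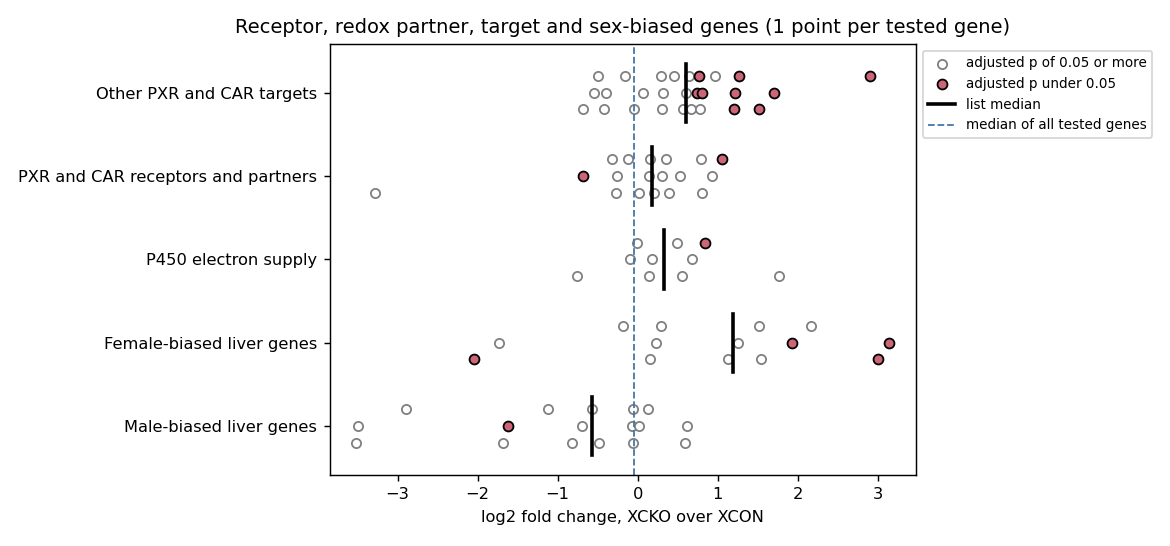
Log2 fold change (XCKO over XCON, horizontal axis) of each tested gene in 5 lists. Filled points passed an adjusted p of 0.05, black bars are list medians and the dashed line is the median of all tested genes (−0.05). The target list holds 9 filled points, all to the right, and the receptor list 1 on each side.

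Since several Cyp3a forms differ between the sexes, sex-linked transcripts and sex-biased liver genes were read as well. The labels give no sex. Y-linked transcripts were present in all 6 libraries, with 1094 to 1681 counts for Ddx3y and 361 to 660 for Uty, and Xist had 0 to 6 counts. The near absence of Cyp3a41 and Cyp3a44 counts was thus measured in libraries with Y-linked transcripts in both groups. Of 14 tested genes known to be higher in female liver, 3 were higher in XCKO and 1 lower, beside 5.21% higher and 4.05% lower over all tested genes: Cyp2b9 (log2 fold change 3.01), Cyp2b13 (1.93) and Hao2 (3.15) rose, and Sult1e1 (−2.04) fell. Leaving out 1 library ended the call of Cyp2b13 (XCON 1, XCON 3 or XCKO 1, adjusted p of up to 0.0541), Hao2 (XCON 2, 0.0583) and Sult1e1 (XCON 2 or XCKO 3, up to 0.0751). The list median was 1.19. Of 17 genes known to be higher in male liver, 0 were higher, 1 was lower (Mup20, −1.62, beside 4.05% of all tested genes called lower) and 16 did not pass, with a median of −0.57. Cyp2b9, Cyp2b13 and Mup20 have close paralogs, and their counts are uncertain. The lists of sex-biased genes were also chosen with earlier results of these data known, so their shares are descriptions and no test. Among the female forms of the Cyp3a family itself, Cyp3a41b had at most 1 count and Cyp3a44 at most 1 count in any XCKO library. Most of the Cyp3a41b transcript is shared with Cyp3a41a, so its count covers only reads that can be told apart.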

How the data were processed

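Raw counts and FPKM per Ensembl gene, as deposited by the authors for 6 libraries, were read from 1 table. The authors' group means (a signal of counts divided by size factors), their log2 fold changes and their p-values, deposited in the same table, were not used. Per the submitters' processing notes, the tool was Bowtie 0.12.2 and 2 builds, mm10 and mm8, are listed without roles. No source used here gives the read counter, strand or read length. Per the labels' protocols, the NEBNext Ultra RNA kit was used for library preparation. The 9 members had the same coordinates as in GENCODE M21 on GRCm38 (mm10).

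Genes were filtered with filterByExpr (14873 kept), scaled by TMM and tested with edgeR 4.0.16's quasi-likelihood F test (R 4.3.3, robust, group alone, all 6 libraries), with Benjamini-Hochberg adjustment and a threshold of 0.05. The biological coefficient of variation was 25.8%. An SE is the size of the log2 fold change over the root of F. The fit was tested on simulated data. Ratios were compared by two-sided exact permutation tests. The labels name no single mice, and each p-value measures only the spread between libraries, which may be technical. Alternatives were other scalings and filters, a replicate block, leaving out each library, DESeq2 1.42.0, limma 3.58.1 (voom, or log2 FPKM plus 1 or 0.1) and a gene length offset.

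The members and lists were chosen with earlier results of these data known. Named were all members, Nr1i2, Nr1i3, Hnf4a, Por, up to 4 genes of each list and of the neighbours by smallest p among those past 0.05, and the 3 genes nearest in profile to each of 3 members. Cyp2b10, Gstm1, Gstm2, Gstm3 and Alb were named after their values were seen, as was the comparison with hepatocyte markers and of ratios within libraries. Promoters (RefSeq) matched 9 of 9 members by symbol, and where a gene had several starts the first was used.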

Additional observations from a re-analysis of the deposited data

How the results depend on the processing

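Cyp3a11, Cyp3a25 and Cyp3a59 kept their direction and their call in all 16 alternatives. Cyp3a16 kept both in the 15 that tested it (a filter of 5 CPM in 3 samples removed it). With 0 counts in XCON its direction could not turn, and it passed the count filter only through XCKO, so this adds no support. Cyp3a13 lost its call in 8 of 16, with a log2 fold change of 0.59 to 1.02. The number of members past 0.05 was 4 without any 1 library, against 5, with Cyp3a16 included each time. With 1 library left out, 4 to 9 of the receptor, supply and target genes passed, against 12, and 0 to 4 neighbours, against 4. With the replicate block, 5 pathway genes and 1 neighbour passed. The replicate numbers share only a number: deviations of same-numbered libraries correlated at 0.055, 0.076 and −0.168, and not every library correlated best with its own number. With DESeq2, 22 pathway genes passed. The counts of pathway genes and neighbours in these alternatives were not compared with the share of all genes called in the same fit. Scaling by library totals shifted all genes (median −0.05 to −0.31, log2) and the log2 fold change of Cyp3a11 from 1.74 to 1.46, without turning any member's direction. The 4 members with at most 15 counts per library were tested only without the filter on low counts, where Cyp3a57, Cyp3a41b and Cyp3a44 did not pass (adjusted p = 0.311, 0.499 and 0.677).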

Other observations

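Beside Cyp3a16, which passed the count filter only through XCKO, 9 genes known from fetal and young liver were looked up. In edgeR 0 of the 4 tested among them passed, beside 9.27% of all tested genes. With so few genes this count is no result about the list. Of the 4, H19 and Gpc3 had an unadjusted p of 0.0219 and 0.00805 in edgeR. DESeq2 called H19 lower (adjusted p = 0.00738) and gave no adjusted p for Gpc3. Afp, which encodes alpha-fetoprotein, had 62, 79 and 57 counts in XCON 1, 2 and 3, against 71, 117 and 53 in XCKO 1, 2 and 3, overlapping, with a log2 fold change of 0.43 (adjusted p = 0.428, edgeR). H19 had 226, 29 and 90 counts in XCON against 15, 14 and 35 in XCKO (log2 fold change −2.26, adjusted p = 0.107), and Gpc3 had 10, 14 and 11 against 1, 0 and 3 (adjusted p = 0.0645). Igf2bp1 and Lin28b had 0 counts in every library. The 8 intestinal markers summed to 54.8 to 83.6 CPM in XCON and 82.3 to 99.5 CPM in XCKO, overlapping. Among them 2 were tested and 0 passed in edgeR, beside 9.27% of all tested genes. Cdx1, Cdx2 and Sis had 0 counts in all 6 libraries.

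Genes outside the family that followed its most abundant members most closely were sought by the root mean square difference of centred log2 CPM over the 6 libraries, among 9468 tested genes with a mean of at least 5 CPM. Nearest to Cyp3a11 were Naa38 (0.148), Ndufb6 (0.159) and Gchfr (0.161). Nearest to Cyp3a25 were Ndufa3 (0.134), L3hypdh (0.145) and Tmem14c (0.162), and nearest to Cyp3a13 were Syde2 (0.0752), Ccdc85b (0.0968) and Znhit2 (0.0971). Cyp3a25 and Cyp3a59 lay at 0.374 and 0.386 from Cyp3a11, and Cyp3a13 at 0.54. Placed among the 9468 candidates by distance from Cyp3a11, they would rank 86, 97 and 471. Cyp3a16, with 0 counts in XCON, would rank 7008. These distances rest on 6 libraries in 2 groups and carry no test.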
